A study of Mus musculus with 8 samples.

Results

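The 10 genes described here are Slco2a1, Kcnj5, Plxdc2, Clstn3, Nbea, Palld, Camsap3, Phldb2, Sdpr and Zfp532. They were chosen from values of these same libraries, as genes high in CD48dim or in CD41+ CD9+ progenitors and near absent in CD48bright or in CD41- CD9- progenitors. They are 10 of 24411 genes in the deposited tables, and all 10 were among the 13177 genes that passed the low-count filter. The choice had 2 sides. Slco2a1, Nbea, Palld, Camsap3, Plxdc2 and Zfp532 (6 genes, called the CD48dim genes below) were picked from CD48dim against CD48bright. Clstn3, Phldb2, Kcnj5 and Sdpr (4 genes, called the CD41+ CD9+ genes below) were picked from CD41- CD9- against the CD34dim CD41+ CD9+ populations.

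The data are 8 bulk RNA libraries. Common myeloid progenitors of wild-type C57BL/6 mice were sorted from marrow into 4 populations, with 2 libraries apiece. All 4 populations were gated as KIT+ and CD16/32-. CD34bright cells were also CD41+ and CD9+. CD48dim and CD48bright cells were CD34dim, CD41+ and CD9+ and differed in surface CD48, and the CD41- CD9- cells were CD34dim. The mice carried no transgene or treatment in the labels, and no age is given in them. Whether replicate libraries stem from different mice is not in the labels, so every p-value here reflects spread among libraries that could be purely technical. In bulk samples, fewer cells of a type and less RNA per cell cannot be told apart.

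Common myeloid progenitors give rise to granulocytes, monocytes, red cells and megakaryocytes. CD41 is the integrin chain of the platelet fibrinogen receptor and is also found on early progenitors, CD9 is a tetraspanin of megakaryocytes and platelets, and CD48 is a surface protein of the SLAM family that is low on blood stem cells and high on many progenitors. The 10 genes are better known from other tissues than from blood progenitors. Slco2a1 is the prostaglandin transporter, Kcnj5 is a potassium channel subunit of the heart and adrenal gland, and Clstn3 and Nbea are studied mainly in neurons. Palld, Camsap3 and Phldb2 organise actin or microtubules, Sdpr belongs to the coat of caveolae, Plxdc2 is a membrane protein first described in tumour blood vessels, and Zfp532 is a zinc finger protein of chromatin.

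The 4 genes shown next are those with the sharpest contrast on each side of the choice: Slco2a1 and Nbea had the largest CD48dim level relative to the next population among the CD48dim genes, and Kcnj5 and Sdpr had no count in CD41- CD9- cells. The 250 bases before the start site are from RefSeq (build GRCm38.p6, that is mm10) and are written 5' to 3' on the strand of the gene. The start site used is not always the outer end of the gene as placed below. The Slco2a1 window lies inside that span, and the Nbea and Kcnj5 windows overlap its end. Capitals mark matches to short words bound by blood transcription factor families. The windows are chr9:103008237-103008486 on the plus strand for Slco2a1, chr3:56183702-56183951 on the minus strand for Nbea, chr9:32344345-32344594 on the minus strand for Kcnj5 and chr1:51288876-51289125 on the plus strand for Sdpr.
Slco2a1: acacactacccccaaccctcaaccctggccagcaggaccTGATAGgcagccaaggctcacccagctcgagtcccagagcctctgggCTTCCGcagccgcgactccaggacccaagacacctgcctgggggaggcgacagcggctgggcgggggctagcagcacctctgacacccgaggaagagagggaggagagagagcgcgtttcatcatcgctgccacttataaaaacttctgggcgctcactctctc
Nbea: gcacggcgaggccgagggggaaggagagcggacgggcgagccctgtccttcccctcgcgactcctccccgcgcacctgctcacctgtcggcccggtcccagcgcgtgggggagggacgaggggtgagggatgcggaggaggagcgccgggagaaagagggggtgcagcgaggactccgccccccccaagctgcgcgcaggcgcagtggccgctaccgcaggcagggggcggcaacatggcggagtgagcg
Kcnj5: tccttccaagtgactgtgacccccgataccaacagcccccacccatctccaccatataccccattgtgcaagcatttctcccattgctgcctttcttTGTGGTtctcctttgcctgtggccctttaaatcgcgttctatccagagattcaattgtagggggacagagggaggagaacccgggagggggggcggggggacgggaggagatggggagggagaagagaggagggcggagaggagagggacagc
Sdpr: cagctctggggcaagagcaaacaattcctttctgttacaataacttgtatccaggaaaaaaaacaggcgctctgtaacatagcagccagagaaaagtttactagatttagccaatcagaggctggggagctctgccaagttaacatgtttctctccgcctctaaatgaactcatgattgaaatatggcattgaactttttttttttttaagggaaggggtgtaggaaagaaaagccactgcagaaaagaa

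Of the 10 genes, 7 had at least 1 RefSeq window that was searched (10 windows in all). Plxdc2 and Camsap3 had no window, and windows of members on the chromosome of Zfp532 were left out of the search. The words searched on both strands were, for GATA factors, AGATAA or AGATAG as well as their variants TGATAA or TGATAG, then CGGAAG for ETS factors, TGTGGT for RUNX factors and TGACAG for MEIS factors, and no word is contained in another. The Slco2a1 window holds a GATA word that starts 211 bases before the start site and an ETS word that starts 164 bases before it. The Kcnj5 window holds a RUNX word 153 bases before the start, and 1 of the Clstn3 windows, not printed, holds a GATA word 76 bases before it. Of the 10 windows of these 7 genes, 2 had a GATA word, 1 an ETS word, 1 a RUNX word and 0 a MEIS word. Among all 32851 promoter windows of that length, the shares with each word were 26.54%, 13.59%, 14.05% and 15.86%. The printed windows differ in base composition: G and C make up 63.2% of the Slco2a1 window, 74.8% of the Nbea window, 58.0% of the Kcnj5 window and 40.4% of the Sdpr window, against a median of 52.4% over all promoters. A match is a description of letters, not a site.

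Levels are given as CPM, the count scaled to the library total after TMM normalization, as the mean ± SD of 2 libraries. The levels are given for the 2 sides of the choice, which are not wholly separate patterns. The 6 CD48dim genes were high in CD48dim alone, at 32.1 to 66.2 CPM, and stood at 11.3 CPM or less in each of the other 3 populations. The 4 CD41+ CD9+ genes were read in all 3 CD41+ CD9+ populations, at 3.21 to 36.2 CPM, and at 0.202 CPM or less in CD41- CD9- cells. Of these, Kcnj5 was also 8.68-fold higher in CD48dim than in the next population. That is more than for Palld (5.89-fold) and Zfp532 (5.51-fold) of the CD48dim genes. CD48dim was the highest population for 9 of the 10, and the exception was Phldb2. Both CD48dim libraries lay above all 6 others for the same 9 genes, as they did for 11.6% of all tested genes. Both CD41- CD9- libraries lay below all 6 others for the 4 CD41+ CD9+ genes, as they did for 6.29% of all tested genes. Since the genes were chosen for these orders, the counts describe them and support nothing.

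**Figure D1:**
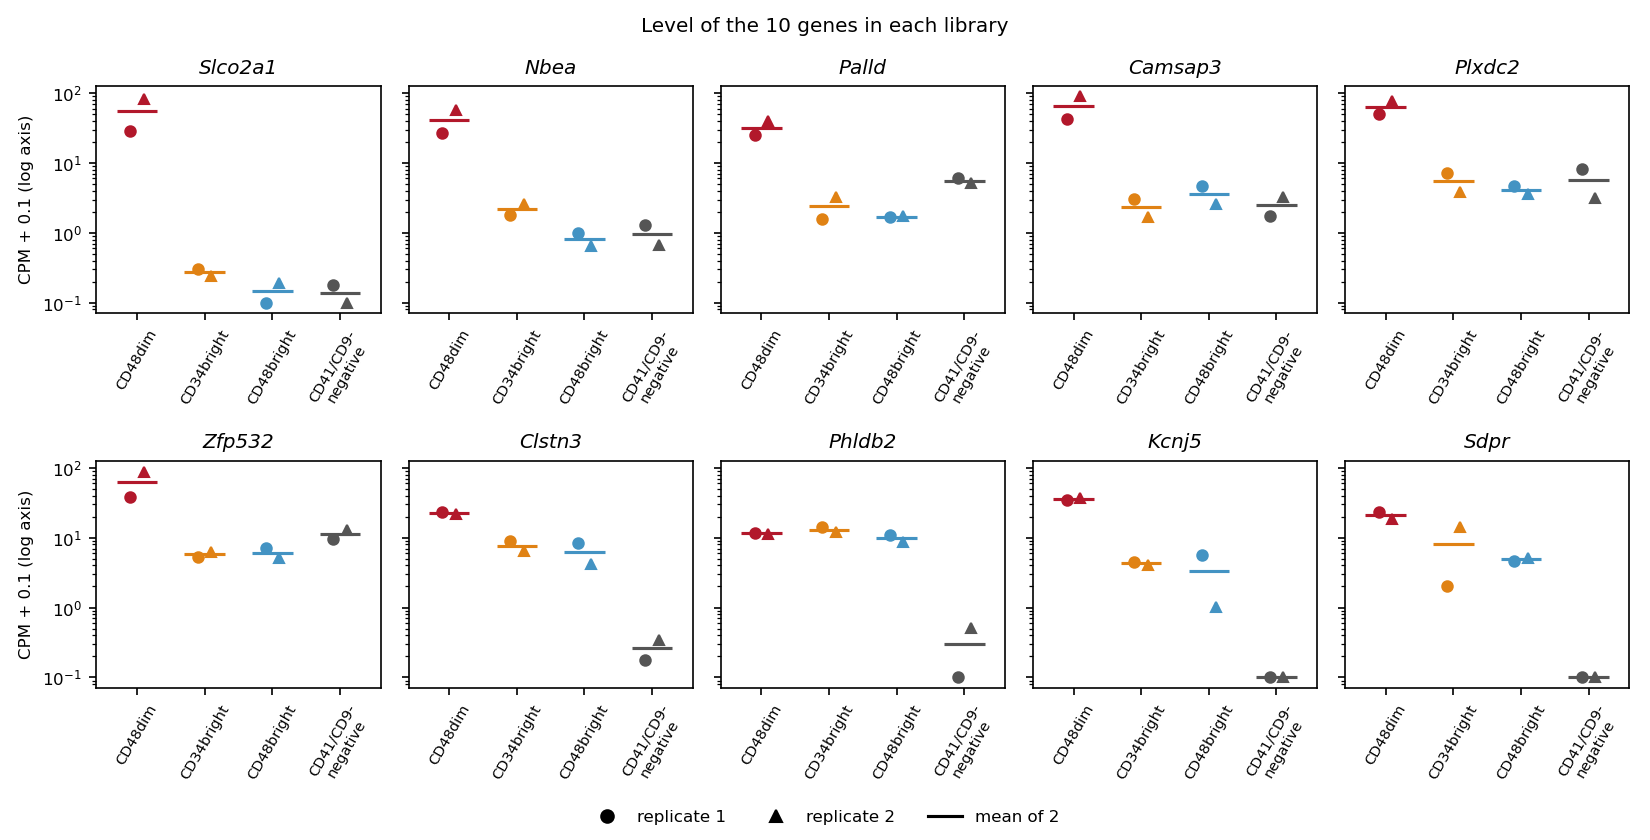
Level of each of the 10 genes in every library, as CPM plus 0.1 on a log axis; circles are replicate 1, triangles replicate 2 and bars the mean of 2. The 6 genes from Slco2a1 to Zfp532 rise only in CD48dim, and the 4 from Clstn3 to Sdpr fall to the bottom of the axis only in CD41- CD9- cells.

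Slco2a1 (chromosome 9, 103007061 to 103096002) takes prostaglandins such as PGE2 into cells. It read 28.8 and 82.3 CPM in CD48dim (393 and 599 counts), and 8 counts in all across the 6 other libraries: 4 and 2 in CD34bright, 1 and 0 in CD41- CD9-, and 0 and 1 in CD48bright. A library with no count allows up to 0.242 CPM in CD41- CD9- replicate 2 and 0.156 CPM in CD48bright replicate 1, taking 3 counts as the limit, which covers counting error only. The lower CD48dim library was 139.9-fold above the highest other library (0.206 CPM in CD34bright replicate 1), so the groups were far apart. Among the 10 genes the mean in CD48dim was largest relative to the next population here, at 319-fold.

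Kcnj5 (chromosome 9, 32314706 to 32344380) encodes GIRK4, an inwardly rectifying potassium channel subunit opened by G protein beta-gamma subunits. It read 35.02 and 37.38 CPM in CD48dim, 4.43 and 3.91 in CD34bright, 5.51 and 0.914 in CD48bright, and had 0 counts in both CD41- CD9- libraries. The CD48dim libraries agreed closely and lay above all others, while CD34bright fell within the span of the CD48bright libraries. Against the limit of 3 counts over both CD41- CD9- libraries (0.120 CPM), the mean was at least 303-fold higher in CD48dim. The same bound was 34.9-fold for CD34bright and 26.9-fold for CD48bright.

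Plxdc2 (chromosome 2, 16355740 to 16761132) is a single-pass membrane protein related to Plxdc1, and both have been described as receptors of the secreted factor PEDF. It read 50.6 and 77.6 CPM in CD48dim, 7.12 and 3.70 in CD34bright, 8.18 and 3.07 in CD41- CD9-, and 4.53 and 3.47 in CD48bright. CD48dim stood 11.4-fold above the next population, and the 3 other populations overlapped one another.

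Clstn3 (chromosome 6, 124430756 to 124464784) is a calsyntenin, a cadherin-like adhesion protein of synapses. It read 23.1 and 21.7 CPM in CD48dim, 8.87 and 6.25 in CD34bright, 0.0787 and 0.242 in CD41- CD9- (4 counts in all), and 8.37 and 4.11 in CD48bright. The order was CD48dim, then CD34bright and CD48bright, whose libraries overlapped, then CD41- CD9- below all. CD48dim exceeded CD34bright 2.96-fold.

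Nbea (chromosome 3, 55625195 to 56183748) is neurobeachin, a large BEACH domain protein that binds protein kinase A and acts in membrane protein traffic. It read 26.6 and 56.5 CPM in CD48dim, 1.70 and 2.49 in CD34bright, 1.18 and 0.565 in CD41- CD9-, and 0.884 and 0.549 in CD48bright. Both CD34bright libraries were above those of the CD48bright and CD41- CD9- populations, which overlapped. CD48dim stood 19.8-fold above CD34bright. Mab21l1, which shares exon positions with Nbea on the opposite strand, had 11 counts in all libraries together against 887 for Nbea.

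Palld (chromosome 8, 61511431 to 61902707) is palladin, a scaffold that crosslinks actin filaments. It read 24.96 and 39.30 CPM in CD48dim, 5.90 and 5.01 in CD41- CD9-, 1.495 and 3.127 in CD34bright, and 1.56 and 1.65 in CD48bright. CD41- CD9- was second, 5.89-fold below CD48dim and with both libraries above those of CD34bright and CD48bright, which overlapped. Palld is also the gene whose estimated transcript length varied most. The tables hold over 1 transcript for 3 of the 10 genes, 4 for Palld. Its abundance-weighted length was 5446 bases in CD48dim replicate 1 and 4128 in CD48dim replicate 2, 5183 and 4670 in CD34bright, 4224 in both CD41- CD9- libraries and 4152 in CD48bright replicate 1, and the last library had 18 counts, under the 20 required. The CD48dim libraries thus differed from each other by more than the populations did. Camsap3 and Phldb2, with 2 transcripts each, showed no comparable spread: 4293 to 4295 bases for Camsap3 in all libraries, and 5495 bases for Phldb2 in every library with enough counts except CD48dim replicate 1 (5570).

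Camsap3 (chromosome 8, 3587237 to 3609075) caps and stabilises the minus ends of microtubules. It read 42.4 and 90.1 CPM in CD48dim, 4.58 and 2.47 in CD48bright, 2.94 and 1.56 in CD34bright, and 1.65 and 3.15 in CD41- CD9-. CD48dim stood 18.8-fold above CD48bright, and the 3 low populations overlapped. Exons of Camsap3 overlap those of Xab2 on the opposite strand. The libraries carry no strand information, and Xab2 had 7902 counts against 1487 for Camsap3, so the level of Camsap3 is uncertain. Xab2 read 154.5 and 39.3 CPM in CD48dim and 44.1 to 73.0 CPM in the other 6 libraries, so that of the CD48dim libraries the one with more Camsap3 had less Xab2.

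Phldb2 (chromosome 16, 45746230 to 45953598), also called LL5 beta, anchors microtubule plus-end proteins at the cell cortex. It read 13.9 and 11.8 CPM in CD34bright, 11.7 and 11.1 in CD48dim, 10.8 and 8.59 in CD48bright, and 0 and 0.404 in CD41- CD9- (5 counts in all). The CD34bright libraries lay just above those of CD48dim, and these just above those of CD48bright, with no overlap but narrow gaps. The mean in CD48dim was 0.887 of that in CD34bright. In the deposited TPM, which also divide by transcript length, the order of the populations was the same as in CPM for 9 of the 10 genes. Phldb2 was the exception, highest in CD48dim at 4.61 ± 1.18 TPM (SD, n = 2) against 3.87 ± 0.0354 in CD34bright.

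Sdpr (chromosome 1, 51289126 to 51302960), now named Cavin2, is a protein of the caveolar coat that binds phosphatidylserine. It read 23.3 and 18.4 CPM in CD48dim, 1.91 and 14.2 in CD34bright, 4.53 and 5.03 in CD48bright, and had 0 counts in both CD41- CD9- libraries. Of the 10 genes, its CD34bright libraries differed most: replicate 2 came within 1.295-fold of the lower CD48dim library, and replicate 1 lay below both CD48bright libraries. Against the same limit, the mean in CD48dim was at least 174-fold that of CD41- CD9- cells, and the bounds were 67.4-fold for CD34bright and 40.0-fold for CD48bright.

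Zfp532 is a zinc finger protein that joins ZMYND8 and related zinc finger proteins in a chromatin module. It read 37.7 and 86.4 CPM in CD48dim, 9.60 and 12.9 in CD41- CD9-, 5.21 and 6.11 in CD34bright, and 6.97 and 4.94 in CD48bright. Like Palld it was second highest in CD41- CD9-, 5.51-fold below CD48dim, with CD34bright and CD48bright overlapping below. Among the 6 CD48dim genes it was the one with the highest level outside CD48dim.

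Per length, the 10 genes were of moderate level in CD48dim. In the deposited TPM the means there were 37.5 for Camsap3, 34.4 for Slco2a1, 27.3 for Zfp532 and 21.4 for Plxdc2, then 18.4 for Kcnj5, 17.1 for Palld and 15.5 for Sdpr. Clstn3 (12.7), Nbea (8.88) and Phldb2 (4.61) were lowest. The genes lie on 8 chromosomes, with at most 2 on any one.

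Library depth ranged from 7237587 expected counts (CD48dim replicate 2) to 20632005 (CD34bright replicate 1). The CD48dim libraries differed more from each other than those of any other population, with a Spearman correlation over genes of 0.836 against 0.954 to 0.976, and the nuclear RNA Malat1 was at 38947 CPM in CD48dim replicate 2 against 5004 to 14867 elsewhere. Of the sort markers, Itga2b (CD41) was at 2.18 and 2.83 CPM in CD41- CD9- and at 64.3 or more elsewhere, and Cd48 at 16.9 and 35.8 CPM in CD48dim and at 156.6 or more elsewhere.

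In CPM, the 2 sets of genes behaved differently between the CD48dim libraries. All 6 CD48dim genes were higher in replicate 2 than in replicate 1: 2.85-fold for Slco2a1, 2.30-fold for Zfp532, 2.13-fold for Camsap3, 2.12-fold for Nbea, 1.57-fold for Palld and 1.53-fold for Plxdc2. The 4 CD41+ CD9+ genes were nearly equal, with ratios of 0.791 for Sdpr, 0.942 for Clstn3, 0.954 for Phldb2 and 1.07 for Kcnj5. This near equality depends on the scaling. In the deposited TPM these 4 were also higher in replicate 2: 22.5 against 14.2 for Kcnj5, 5.44 against 3.77 for Phldb2, 14.8 against 10.5 for Clstn3 and 16.8 against 14.2 for Sdpr. Over 11036 tested genes above 1 CPM in both libraries the median ratio was 1.01, 20.3% had a ratio above 2 and 10.4% reached that of Slco2a1. Malat1 had a ratio of 3.77. The part of this difference between libraries in the CD48dim levels was not tested. With CD48dim replicate 1 alone, the lower of the 2 for each of the 6, the level was still between 2.92-fold (Zfp532) and 139.9-fold (Slco2a1) that of the highest other library.

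**Figure D2:**
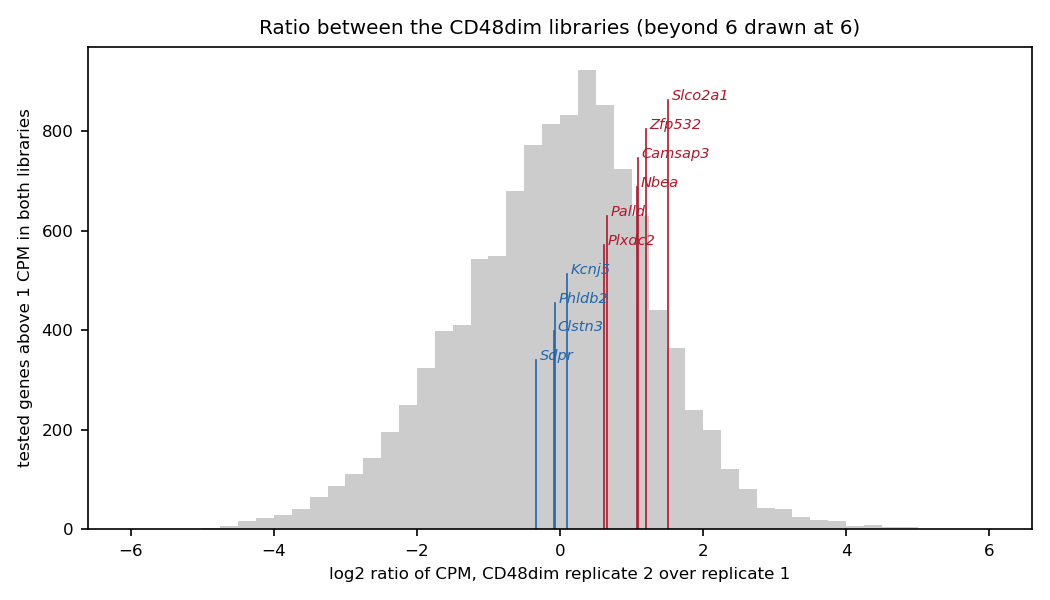
Histogram of the log2 ratio of CPM between the CD48dim libraries (replicate 2 over replicate 1) for 11036 tested genes, with vertical lines at the 10 genes (red, the 6 CD48dim genes; blue, the 4 CD41+ CD9+ genes; line height has no meaning). The red lines all lie right of 0 and the blue lines lie near it.

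Of the summed marker lists, those of stem cells and of megakaryocytes and platelets were highest in both CD48dim libraries. The summed level of 14 stem cell markers (all 14 detected in both CD48dim libraries) was 2009 and 2719 CPM in CD48dim against 490.1 to 1048 elsewhere. That of 12 megakaryocyte and platelet markers (11 and 10 detected) was 953 and 962 CPM against 240.0 to 357 in CD34bright and CD48bright and 67.2 in both CD41- CD9- libraries. Mature neutrophil markers (9 of 9 detected in every library) reached 4140.3 and 616 CPM in CD48dim and 686 in CD41- CD9- replicate 1, against 49.8 to 165 in the other 5. Within that list Cxcr2 was lower in CD48dim (11.1 and 11.3 CPM) than in CD34bright and CD48bright (26.8 to 86.9 CPM). Erythroid markers (11 of 11 detected) summed to 726 and 464 CPM in CD48dim and 56.5 to 537 elsewhere, so the populations overlapped. Car1 alone read 337 and 357 CPM in CD48dim and 446 CPM in CD48bright replicate 1. Mast cell and basophil markers (7 of 7 detected) were at 97.4 and 137 CPM in CD48dim, 698 to 1347 in CD34bright and CD48bright and 39.6 to 61.1 in CD41- CD9-. Lymphoid and dendritic markers (7 of 8 detected in each CD48dim library) were at 86.0 and 71.6 CPM in CD48dim, 235 to 434 in CD34bright and CD48bright and 2589.9 to 3696 in CD41- CD9-. The part of these cells in the levels of the 10 genes was not tested.

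Because several of the 10 genes are known from endothelium or stroma, lists for those cells were read as well. Of 14 endothelial markers, 10 and 6 were detected in the CD48dim libraries, and their sum there (242 and 206 CPM) lay within the 123 to 262 CPM of the other libraries. Cdh5, Plvap and Stab2 had 0 counts in both CD48dim libraries and some counts in each other population. Sox17 had 0 counts in every library. Cldn5 (2 counts), Lyve1 (1 count) and Sox18 (9 counts) were read in CD48dim replicate 1 and had 0 counts in CD48dim replicate 2. Kdr was at 2.35 and 0.275 CPM in CD48dim, against 0 to 4.90 CPM elsewhere. In both CD48dim libraries, Tie1 (78.7 and 85.5 CPM), Robo4 (41.6 and 47.5 CPM) and Emcn (9.76 and 9.89 CPM, against at most 6.47) were above all 6 other libraries. Pecam1 (77.1 and 59.2 CPM, against 88.8 to 222) was below them, and Egfl7 (27.5 and 3.57 CPM) and Flt1 (4.55 and 0 CPM) differed between the CD48dim libraries. The part of endothelial cells in the levels of the 10 genes was not tested. Stromal markers (10 and 4 of 11 detected) summed to 43.1 and 68.6 CPM in CD48dim and 48.4 to 95.6 CPM elsewhere, with Col3a1 at 0 in every library. Cxcl12 was at 11.6 and 16.9 CPM in CD48dim against 0 to 3.55 CPM elsewhere, and Pdgfrb was lower there (23.2 and 40.3 CPM) than in the other 6 libraries (47.2 to 89.5).

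The contrasts that chose the genes are given as a description only. From CD48dim against CD48bright, 6 of the 10 genes were called higher (the 6 CD48dim genes), where 15 genes or 0.114% of all tested genes were. From the CD34dim CD41+ CD9+ mean against CD41- CD9-, 4 of the 10 were called (the 4 CD41+ CD9+ genes), where 120 genes or 0.911% of all were lower in CD41- CD9-. Nothing is read from these counts. Without either CD48bright library the first count was 0, and without CD41- CD9- replicate 1 the second was 0; with CD48dim replicate 1 left out they were 7 and 8.

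CD34bright cells are also CD41+ and CD9+, and whether their level entered the choice is not clear, so each comparison with CD34bright has at least 1 side that the choice used. In CD34bright the 6 CD48dim genes read 0.174 to 5.66 CPM, far from the 32.1 to 66.2 CPM of CD48dim. These genes were picked for a high level in the same CD48dim libraries, so the calls and the median below describe them and support nothing. Slco2a1, with 8 counts outside CD48dim, passed the low-count filter through that population alone. By edgeR's quasi-likelihood test with Benjamini-Hochberg adjustment over all tested genes, 4 of the 10 genes were called lower in CD34bright than in CD48dim, where 0.212% of all tested genes were. They were Slco2a1 (log2 fold change -8.22 ± 1.05 SE, adjusted p = 0.0289, edgeR), Camsap3 (-4.86 ± 0.72, 0.0374), Zfp532 (-3.45 ± 0.57, 0.0400) and Nbea (-4.31 ± 0.74, 0.0436). Palld (-3.80 ± 0.69, adjusted p = 0.0526) and Plxdc2 (-3.56 ± 0.65, 0.0530) just missed the threshold of 0.05 and were called with the replicate number as a block, which gave 6. Of the 4 CD41+ CD9+ genes none was called: Kcnj5 differed by -3.11 ± 0.87, Clstn3 by -1.56 ± 0.68, Sdpr by -1.37 ± 0.92 and Phldb2 by 0.17 ± 0.84. The median over the 10 genes was -3.51, against -0.072 over all tested genes. The count of 4 fell to 0 without either CD34bright library, without either CD41- CD9- library or with only the compared populations in the fit, and to 2 without either CD48bright library; it was 7 with DESeq2, with no low-count filter or without CD48dim replicate 1.

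Between CD34bright and CD48bright, none of the 10 genes was called by edgeR, and neither was any of all 13177 tested genes (0%). At an unadjusted p below 0.05 the numbers were 0 of the 10 and 262 of all, and DESeq2 called 0 of the 10 and 42 of all. This does not show that the levels were alike. For Phldb2, for example, the log2 fold change was 0.41 with a 95% interval of -1.47 to 2.29, and for Zfp532 it was -0.08 with an interval of -1.26 to 1.11. Nbea had the lowest unadjusted p of the 10 (0.0595), at 1.51 with an interval of -0.07 to 3.09. The median of the 10 genes was 0.42 and that of all tested genes -0.01.

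Between CD34bright and CD41- CD9-, 4 of the 10 genes were called higher in CD34bright, where 0.266% of all tested genes were. They were the 4 CD41+ CD9+ genes, whose low CD41- CD9- level the choice used. Clstn3 was 5.49 ± 0.88 higher on the log2 scale (adjusted p = 0.0291, edgeR) and Phldb2 5.94 ± 1.10 (0.0465). For Kcnj5 (adjusted p = 0.0458) and Sdpr (0.0449) the fitted change is no measure of size, since CD41- CD9- cells had no count, and the bounds of 34.9-fold and 67.4-fold above apply. For the 6 CD48dim genes this is the only comparison whose 2 populations are not those of the contrast that chose them. The CD48dim and CD48bright libraries still entered the pooled spread. Of the 6, 0 were called, where 0.842% of all tested genes were in either direction, so the count of 0 says little. The adjusted p-values of the 6 by edgeR ran from 0.599 (Palld) to 0.992 (Plxdc2). The 95% interval was -1.52 to 1.35 on the log2 scale for Camsap3, -1.404 to 1.296 for Plxdc2, -2.18 to 0.20 for Zfp532, -2.67 to 0.18 for Palld and -0.33 to 2.83 for Nbea, and Slco2a1 rested on 6 counts against 1. The median of the 10 genes was 1.59, also with Kcnj5 and Sdpr at their bounds, and that of all genes 0.0042. The count of 4 became 0 without CD34bright replicate 2 or without either CD41- CD9- library, 1 without CD34bright replicate 1 and 2 without either CD48bright library.

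**Figure D3:**
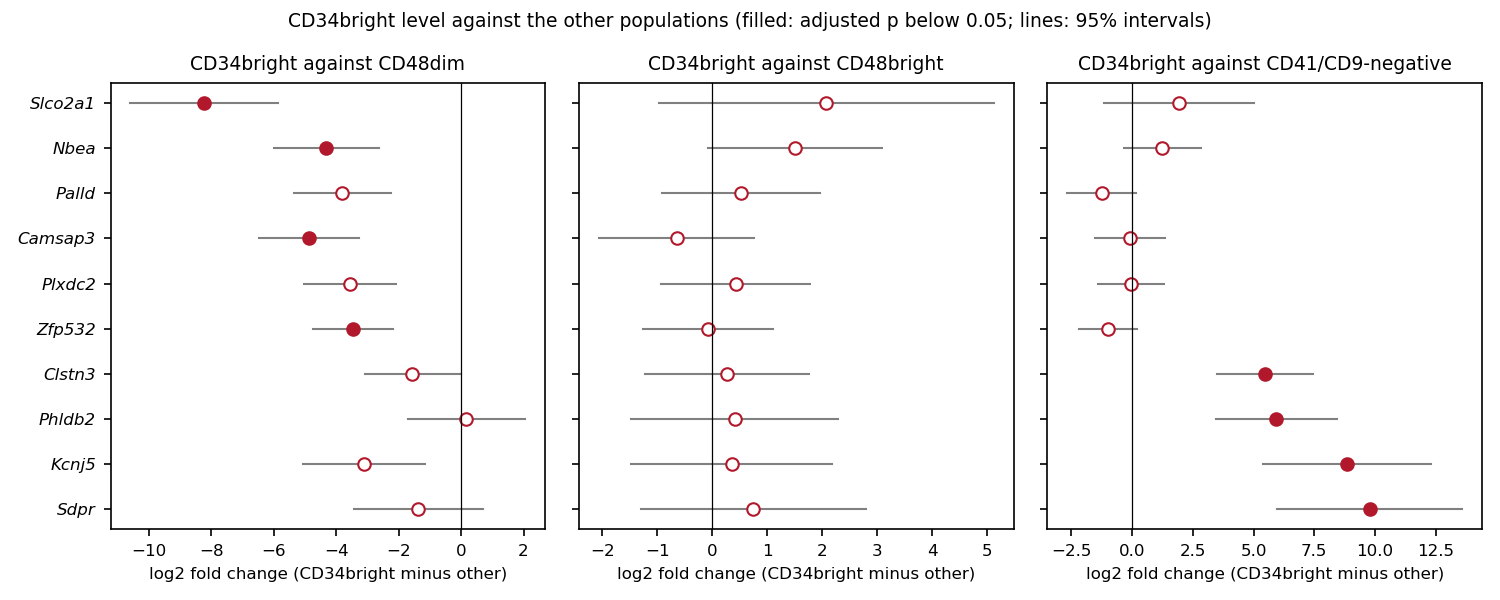
Log2 fold change of each gene in CD34bright relative to CD48dim, CD48bright and CD41- CD9- cells, with 95% intervals computed from the approximate SE; filled points had an adjusted p below 0.05 by edgeR. Filled points are 4 of the CD48dim genes on the left and the 4 CD41+ CD9+ genes on the right, where the points of Kcnj5 and Sdpr stand against a group with no count and show no size.

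Relatives and working partners of each gene were read from 10 lists of 113 genes, of which 99 were tested. The lists were drawn up from the known biology of each gene. By edgeR 0 of the 99 were called between CD48dim and CD48bright (0.387% of all tested genes), 0 between CD34bright and CD48dim (0.577%) and 0 between CD34bright and CD48bright. From the CD34dim CD41+ CD9+ mean to CD41- CD9-, 4 were called lower and 1 higher in CD41- CD9- (5.05% of the 99, against 2.44% of all tested genes). Between CD34bright and CD41- CD9- 1 was called, lower in CD34bright (1.01%, against 0.842%). With the replicate number as a block these 5 counts were 2, 9, 0, 11 and 4, in the same order, and with DESeq2 they were 8, 16, 0, 15 and 11. Without CD48dim replicate 1 they were 25, 32, 0, 20 and 14. Without either CD41- CD9- library, none of the 99 was called in the last 2 comparisons.

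Around Slco2a1, 17 of 18 genes of prostaglandin handling and of the same transporter family were tested. Ptgs1, the cyclooxygenase COX-1 that begins prostaglandin and thromboxane synthesis, was at 183.9 ± 26.3 CPM (SD, n = 2) in CD48dim, 33.3 ± 5.54 in CD34bright, 4.77 ± 0.928 in CD41- CD9- and 30.3 ± 24.6 in CD48bright. It was higher in the CD34dim CD41+ CD9+ mean than in CD41- CD9- (log2 fold change 3.97 ± 0.58, adjusted p = 0.0103, edgeR). Tbxas1, thromboxane synthase, was likewise highest in CD48dim (69.7 ± 15.8 CPM) and lowest in CD41- CD9- (9.65 ± 0.963), with 16.2 ± 2.35 in CD34bright and 22.4 ± 6.45 in CD48bright (log2 fold change 2.03, adjusted p = 0.0324). Between CD48dim and CD48bright neither passed (adjusted p = 0.107 and 0.155), though Ptgs1 did with the replicate block (0.0389). The most abundant genes by mean TPM that were not called were the PGE synthase and co-chaperone Ptges3, the transporter Slco3a1 and the PGE receptor Ptger1. Slco3a1, the relative of Slco2a1 with the most RNA, had 230 ± 4.8 CPM in CD34bright and 122 ± 1.33 in CD48dim.

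Around Kcnj5, 10 of 14 genes were tested and 0 were called. GIRK4 usually pairs with GIRK1, encoded by Kcnj3, and Kcnj3, Kcnj6 and Kcnj9 did not pass the low-count filter (these were named after their values were seen). The most abundant genes of the list by mean TPM were the G protein subunits Gnai2, Gnb1 and Gnai3, read in all populations at means of 155 to 372 CPM.

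The 4 relatives and ligands listed for Plxdc2 were tested, and 1 was called. Plxdc1, its closest relative, had the opposite pattern: 0 counts in both CD48dim libraries, 2.78 ± 0.516 CPM in CD34bright, 12.3 ± 8.12 in CD41- CD9- and 5.64 ± 2.24 in CD48bright. Against the limit of 3 counts over both CD48dim libraries (0.144 CPM), it was at least 85.5-fold higher in CD41- CD9- than in CD48dim. It was called higher in CD41- CD9- than in the CD34dim CD41+ CD9+ mean (adjusted p = 0.0234, edgeR). Serpinf1, which encodes PEDF, was read in all 4 populations (32.6 to 93.5 CPM), as was cortactin (Cttn, 10.8 to 40.6 CPM), while the basement membrane protein Nid1 was at 1.61 CPM or less.

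Of the calsyntenin list of Clstn3, 7 of 10 genes were tested and 0 were called. Among the more abundant by mean TPM were Klc1, the kinesin light chain that calsyntenins bind, at 21.9 to 30.4 CPM, and Clstn1 at 14.6 to 27.7 CPM.

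All 12 BEACH domain and protein kinase A genes listed for Nbea were tested, and 1 was called. Wdfy3, a BEACH protein of selective autophagy, was at 263 ± 63.6 CPM in CD48dim, 119 ± 25.9 in CD48bright, 93.5 ± 14.4 in CD34bright and 54.2 ± 4.88 in CD41- CD9- (1.71 higher in the CD34dim CD41+ CD9+ mean than in CD41- CD9-, adjusted p = 0.0237, edgeR). The most abundant others by mean TPM were the protein kinase A subunits Prkar1a and Prkar2b and the BEACH protein Nsmaf, at means of 67.5 to 337 CPM.

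Of the actin genes listed for Palld, 12 of 14 were tested and 0 were called. Profilin 1 (Pfn1), zyxin (Zyx) and talin 1 (Tln1) were the most abundant by mean TPM, at means of 201 to 587 CPM in every population.

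Of 14 microtubule end proteins listed for Camsap3, 14 were tested and 1 was called. Camsap2, which also binds minus ends, had another order than Camsap3: 77.5 ± 0.406 CPM in CD41- CD9-, 43.9 ± 18.0 in CD48dim, 18.5 ± 1.76 in CD48bright and 12.8 ± 3.95 in CD34bright. It was lower in CD34bright than in CD41- CD9- by 2.59 ± 0.45 on the log2 scale (adjusted p = 0.0374, edgeR). By mean TPM, Mapre2, Nin and Ckap5 were the most abundant others, at means of 124 to 417 CPM.

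Around Phldb2, 10 of 11 genes were tested and 1 was called. Erc1 (ELKS), which works with LL5 beta at the cortex, was at 109.7 ± 31.0 CPM in CD48dim, 50.3 ± 21.6 in CD48bright, 46.9 ± 1.58 in CD34bright and 13.3 ± 0.127 in CD41- CD9-. It was higher in the CD34dim CD41+ CD9+ mean than in CD41- CD9- by 2.48 on the log2 scale (adjusted p = 0.0130, edgeR). The liprin Ppfia1 and the plus-end proteins Clasp1 and Clasp2, which LL5 beta recruits, were read in all populations at means of 78.2 to 208 CPM.

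Of 12 caveolar genes listed for Sdpr, 9 were tested and 0 were called. The other cavins, named after their values were seen, were Ptrf (Cavin1) at 25.2 ± 31.9 CPM in CD48dim and 0.605 ± 0.856 in CD41- CD9-, and Prkcdbp (Cavin3) at 10.5 ± 8.04 CPM in CD48dim with 0 counts in CD41- CD9-. Cav1, the membrane protein that caveolae are built on, was at 1.61 CPM or less in every population and at 0.0367 CPM in CD48dim. The most abundant genes of the list by mean TPM were Pacsin2, Ehd4 and Prkca, at means of 31.4 to 168 CPM.

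The 4 genes listed with Zfp532 were all tested and 0 were called. Zmynd8 and Zfp592, among the more abundant by mean TPM, were read in every population, at means of 125 to 216 CPM.

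**Figure D4:**
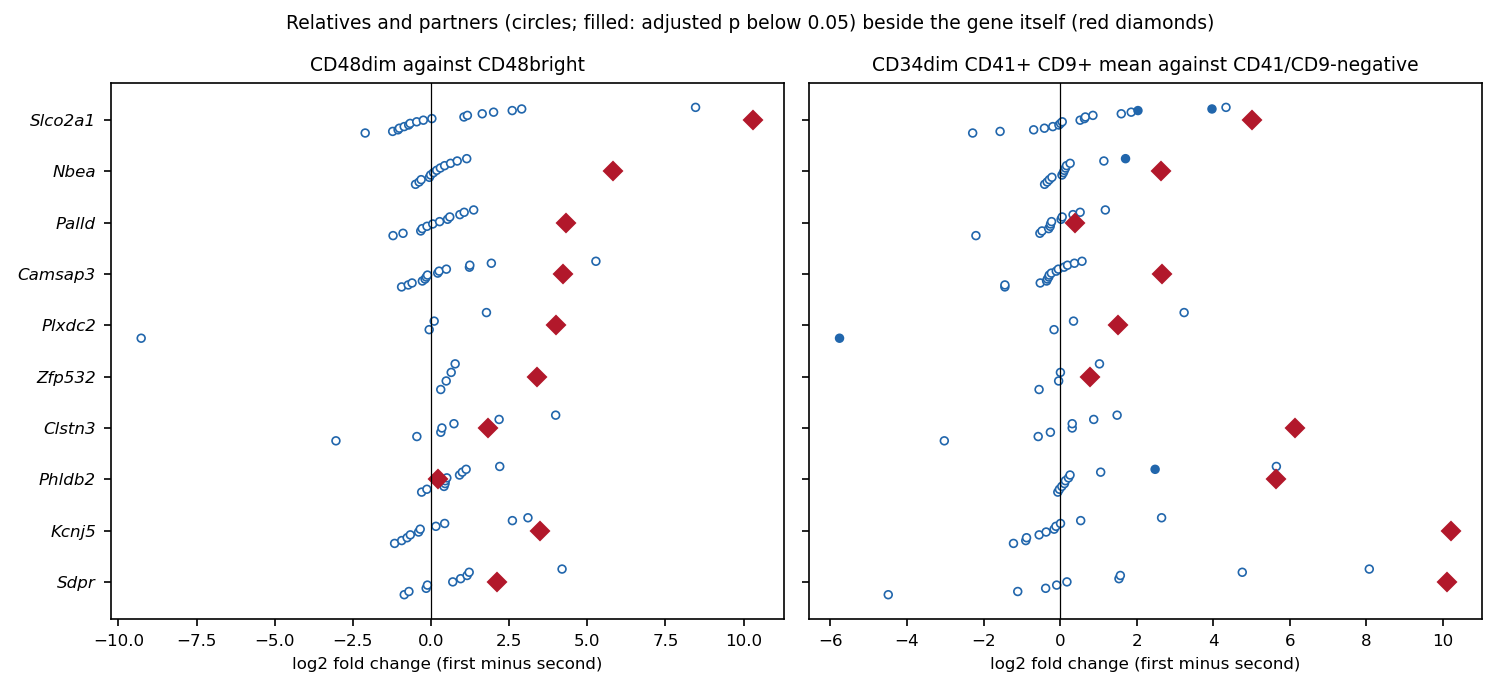
Log2 fold change of the tested relatives and partners (circles, filled where the adjusted p was below 0.05) in a row for each of the 10 genes (red diamonds), for CD48dim against CD48bright on the left and for the CD34dim CD41+ CD9+ mean against CD41- CD9- on the right. Most circles lie near 0, and the diamonds, chosen for these contrasts, lie mostly to the right; points of genes with no count in a group, such as Plxdc1, Kcnj5 and Sdpr, show direction and not size.

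Levels across the 8 libraries were compared as log2(CPM + 0.5), as a description without a test, since the libraries share their populations and depth. Within the 6 CD48dim genes, Pearson's r over 8 libraries ran from 0.865 to 0.981 (median of 15 pairs 0.934). Within the 4 CD41+ CD9+ genes it ran from 0.776 to 0.952 (median of 6 pairs 0.898), and between the sets from -0.016 to 0.859 (median of 24 pairs 0.590). The genes whose levels most resembled the mean profile of the 10 genes, of 9727 with at least 8 CPM on average, were Trpc6 (r = 0.993), Mecom (0.988), Ptprv (0.987), Lrmp (0.982), Procr (0.982), Slc43a1 (0.981), Itih5 (0.978), Traf2 (0.978), Dlg2 (0.977) and Golga4 (0.972). Pearson's r reflects the shape of a profile and not the size of its differences, which varied within this list. Trpc6, a calcium-permeable channel, had 39.6 CPM in CD48dim, 2.56 in CD34bright, 0.238 in CD41- CD9- and 1.82 in CD48bright. Mecom, a transcription factor of blood stem cells, had 90.0 CPM in CD48dim, 11.02 in CD34bright, 5.96 in CD41- CD9- and 8.96 in CD48bright, and Procr, the protein C receptor of blood stem cells, had 51.1, 5.09, 1.44 and 2.87 CPM in the same order of populations. Differences were far smaller for Lrmp (97.5 CPM in CD48dim, 66.9 to 76.3 elsewhere) and Golga4 (348, 159 to 208). They were also modest for Traf2 (42.2, 15.6 to 21.7), Slc43a1 (132, 40.4 to 67.9) and Itih5 (272, 90.9 to 126). Ptprv (26.6, 3.66 to 6.28) and Dlg2 (31.4, 0.239 to 1.82) were steeper. Of these 10 most similar genes, 8 were also among the first 10 with an offset of 2 CPM, but only 1 with Spearman's correlation, so the ranking rests on the measure.

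Read one by one, the 10 genes had different nearest neighbours, by an r that does not take in the size of a change. Kcnj5 was nearest to Ptgs1 (r = 0.995 over 8 libraries) and Prdm16 (0.986), and Phldb2 to Dio2 (0.983) and Gata2 (0.980). Clstn3 was nearest to Tfr2 (0.984) and Erc1 (0.981), which is the called partner of Phldb2, and Sdpr to Steap3 (0.986) and Trim47 (0.972). Zfp532 was nearest to Arhgef12 (0.981) and Mllt3 (0.978), a nuclear protein of blood stem cells. Slco2a1 was nearest to Tap2 (0.985) and Gcnt2 (0.978), Nbea to Tmem8b (0.987) and Ulk1 (0.985), and Palld to Gimap8 (0.982) and 2310015A10Rik (0.977). Camsap3 was nearest to Ddx58 (0.990) and Gprasp1 (0.985), and Plxdc2 to Zfp672 (0.978) and Ercc4 (0.978). Gimap8 shared with Palld the second place of CD41- CD9- cells, at 38.7 CPM in CD48dim, 11.2 in CD41- CD9-, 5.30 in CD48bright and 4.65 in CD34bright. Some neighbours differed far less among populations than the gene itself. Tap2 was at 82.7 CPM in CD48dim and 40.5 to 43.1 elsewhere, and Tmem8b at 14.9 and 7.02 to 8.25. Others were steep, such as Prdm16 at 54.8 CPM in CD48dim and 1.75 to 7.75 elsewhere.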

How the data were processed

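RNA of 8 libraries was measured. Per the labels' protocols, 5 ng of total RNA was amplified (Ovation RNA-Seq System V2) before Illumina sequencing, and this amplification removed the strand of the reads. The deposited tables, per the file headers, give expected counts per gene, TPM (a measure that also divides by transcript length) and an estimated transcript length in bases. Per the submitters' processing notes, the tools were STAR 2.7.2a, RSEM 1.3.2 and edgeR 3.30.3, and the build mm10. Settings of the aligner: not given in the sources used here.

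Expected counts were rounded (at most 2.2% of genes in any library held a fraction). Of 24411 genes, 13177 passed filterByExpr. edgeR 4.0.16 in R 4.3.3 fitted 1 mean per population over all 8 libraries with TMM scaling (4 residual and 5.46 prior degrees of freedom), tested by quasi-likelihood F-tests, two-sided, with Benjamini-Hochberg adjustment over all tested genes and a threshold of 0.05. An SE was approximated as the log2 fold change over the square root of F, and 95% intervals use it. The fit was tested on simulated data. DESeq2 1.42.0 was an alternative. The second deposited table of each library was not used.

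The genes, the lists of relatives and markers and the comparisons were chosen with earlier results of these data known. The text names all 10 genes, each listed relative that was called, up to 3 of the most abundant others per list by mean TPM, the 10 genes most like the mean profile and the 2 most like each gene. Exceptions are marked. Some genes that this rule names are not reported here. Comparisons share libraries and are not independent.

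Replicate numbers come from the titles. Deviations of same-numbered libraries from their population means correlated at 0.142 to 0.274 in all 6 pairs of populations. A fit with the replicate number as a block was therefore run as an alternative. In every population, replicate 1 was also the deeper library and the one with less Malat1. Pairing of the libraries cannot be told apart from these shared differences. Cluster numbers in the titles differ from those of the series text and were not used. Positions are those of GRCm38.p6.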

Additional observations from a re-analysis of the deposited data

How the results depend on the processing

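Each comparison was repeated under 14 alternatives: RLE scaling, no filter, a filter of 1 CPM in 2 libraries, the replicate block, DESeq2, a fit of the compared populations alone, and each library left out in turn. Where a population was left with 1 library, its spread was taken to be that of the others, and leaving out a CD48dim library removes the widest spread from the estimate. Numbers of the 10 genes called were 6, 4, 4, 0 and 4, for CD48dim against CD48bright, the CD34dim CD41+ CD9+ mean against CD41- CD9-, and CD34bright against CD48dim, CD48bright and CD41- CD9-. They were 7, 6, 7, 0 and 4 with no filter and 7, 7, 7, 0 and 4 with DESeq2. With the replicate block they were 6, 5, 6, 0 and 4, and in the fit alone 0, 3, 0, 0 and 4, for these comparisons in the same order. In the first they became 0 in the fit of the compared populations alone and 0 to 7 with a library left out. In the second they became 7 with DESeq2 and 0 to 8 with a library left out. In the third they became 7 with no filter, 7 with DESeq2, 0 in the fit alone and 0 to 7 with a library left out. In the fourth none changed, and in the fifth they became 0 to 4 with a library left out.

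Over all genes the numbers called were 51, 322, 76, 0 and 111 in that order. They were 588, 778, 1018, 39 and 532 with no filter, 791, 911, 1312, 42 and 635 with DESeq2, and 0, 179, 0, 0 and 1081 in the fit alone. With the replicate block, which pairs same-numbered libraries, they were 178, 562, 682, 0 and 266. With a library left out they ran from 4 to 3211, 29 to 1692, 0 to 3911, 0 to 20 and 3 to 772. The block raised Palld and Plxdc2 past the threshold for CD34bright against CD48dim and Camsap3 for the CD34dim mean, and changed no other call of the 10 genes.

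For the relatives (alternatives added after their values were seen), the numbers called were 0, 5, 0, 0 and 1. They were 5, 14, 12, 0 and 7 with no filter, 8, 15, 16, 0 and 11 with DESeq2, 2, 11, 9, 0 and 4 with the replicate block, and 0, 2, 0, 0 and 18 in the fit alone. With a library left out they ran from 0 to 25, 0 to 20, 0 to 32, 0 to 0 and 0 to 14.

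Of the log2 fold changes of single genes, 567 kept direction and side of the threshold, 91 dropped below it, 28 passed it and 12 changed sign, all of these uncalled differences with a library left out. With each library left out in turn, CD34bright minus CD48bright ran from -0.075 to 0.96 for Palld, -0.12 to 0.85 for Plxdc2, -0.30 to 0.20 for Zfp532, -0.15 to 0.88 for Clstn3, -0.40 to 2.18 for Kcnj5 and -1.30 to 1.57 for Sdpr. CD34bright minus CD41- CD9- ran from -0.61 to 0.46 for Camsap3 and -0.60 to 0.83 for Plxdc2.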
